A study of Mus musculus with 21 samples.

Results

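The 7 genes described here encode the muscle nicotinic acetylcholine receptor and its clustering machinery: the receptor subunits Chrna1, Chrnb1, Chrnd, Chrng and Chrne, the receptor tyrosine kinase Musk and the scaffold protein gene Rapsn. They were taken by name, without use of any measured value, from 19304 protein-coding genes of at least 2 kb. All 7 were found in the RefSeq annotation of the mouse build GRCm38. The readout was the percentage of each gene body lying inside peaks of H3K36me3, called cover here, in each of 20 chromatin immunoprecipitation libraries. Cover says how much of a gene was called as marked, and not how strongly.

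The libraries came from C2C12 cells, a mouse myoblast line that leaves the cell cycle and fuses into myotubes when differentiated in culture. Chromatin was taken at day 0, day 1 and day 5, the last 2 either in control condition or under methionine restriction. Wild-type (WT) cells gave 2 libraries in each of the 5 conditions, and 2 Setd2 knockout lines, KO line 1 and KO line 2, gave 1 library each per condition. All groups share the C2C12 background and the same H3K36me3 antibody. The labels do not say whether the WT replicates were separate cultures, so p-values measure the spread between these libraries, which may be technical. The series' design text speaks of KO lines and the labels number them KO_1 and KO_2, while the peak names inside the KO files call the same libraries replicates 1 and 2; the labels were followed, and whether these are separate lines or replicates of a line is not settled by the files. Neither has replicates of its own within a condition, and how the alleles were made is not given in the sources used here.

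H3K36me3 is written by SETD2, a methyltransferase that travels with elongating RNA polymerase II, so the mark normally lies over the bodies of transcribed genes and is thin or absent at promoters. The methyl groups come from S-adenosylmethionine, which cells make from methionine. The muscle receptor is a pentamer of alpha, beta and delta subunits with either gamma, in fetal and denervated muscle, or epsilon, at the mature synapse. The myogenic factors that bind E-boxes are known to drive the receptor genes when myoblasts differentiate, and N-boxes are known as sites through which the epsilon gene is expressed in nuclei beneath the synapse.

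The WT peak lists covered between 109.9 and 183.5 Mb of the genome, with 140.2 to 183.5 Mb in the 6 day 0 and control libraries and 109.9 to 134.2 Mb in the 4 restricted ones. The KO line 1 lists covered 0.307 to 74.1 Mb and the KO line 2 lists 0.00821 to 7.13 Mb. Read depth is unknown from peak lists, and its part in the differences in cover was not tested. The 6 genes listed as markers of differentiated muscle, among them Myog and Acta1, had cover of 0 in both day 0 libraries, summed to 214.4 to 217.4 points in the day 1 control libraries and to 511.0 to 532.7 points in the day 5 control libraries. Under restriction the same 6 genes summed to 0 to 19.8 points at day 1 and 119.8 to 144.6 points at day 5, with Myog at 0 in all 4 libraries. The 6 genes listed as myoblast markers summed to 288.5 to 304.0 points at day 0. In control condition they summed to 282.8 to 293.2 points at day 1 and 239.6 to 261.6 at day 5. Under restriction these sums were 110.0 to 134.3 and 125.6 to 126.9 points. Of 6 neuron markers, Snap25, Syt1, Chat, Slc18a3 and Rbfox3 had WT group means of at most 0.0339%, and Tubb3 had 29.6% to 64.2%. Of the Schwann cell markers, Sox10 had cover of 0 and S100b had 4.12% to 23.0%, and Pecam1, Cdh5 and Ptprc, of endothelium and leukocytes, had cover of 0 in all WT groups. These data are from bulk chromatin, in which fewer cells carrying the mark and less mark per cell cannot be told apart.

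The promoters of 3 of the genes are shown because the cover results turn on the fetal gamma subunit, the adult epsilon subunit and the alpha subunit present in both receptors. Promoter entries were found for 5 of the 7 genes, Chrna1, Chrnb1, Chrng, Chrne and Musk. Each line gives the 250 bases before the start site that the RefSeq promoter entry uses, 5′ to 3′ on the gene's own strand, from RefSeq on GRCm38.p6, with E-boxes (CANNTG, the same on both strands) and N-boxes (CCGGAA, searched on both strands) in capitals. The Chrng window is chr1:87205561-87205810 on the plus strand, the Chrna1 window chr2:73580339-73580588 on the minus strand, and the Chrne window chr11:70619195-70619444 on the minus strand. That start site is not always the end of the gene body used for cover: 19 bases of the Chrne window, 29 of the Chrnb1 window and 233 of the Musk window lie inside the body, and 0 of the Chrna1 and Chrng windows.
Chrng: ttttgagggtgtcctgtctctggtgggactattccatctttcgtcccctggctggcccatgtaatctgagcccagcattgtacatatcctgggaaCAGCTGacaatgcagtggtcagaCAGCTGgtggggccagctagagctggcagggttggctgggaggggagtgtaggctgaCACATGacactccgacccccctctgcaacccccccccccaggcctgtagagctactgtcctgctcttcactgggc
Chrna1: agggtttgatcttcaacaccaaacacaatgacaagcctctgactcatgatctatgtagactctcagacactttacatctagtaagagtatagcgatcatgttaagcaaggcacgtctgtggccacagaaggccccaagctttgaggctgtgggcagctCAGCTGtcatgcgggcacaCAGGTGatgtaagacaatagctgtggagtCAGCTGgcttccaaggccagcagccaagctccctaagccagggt
Chrne: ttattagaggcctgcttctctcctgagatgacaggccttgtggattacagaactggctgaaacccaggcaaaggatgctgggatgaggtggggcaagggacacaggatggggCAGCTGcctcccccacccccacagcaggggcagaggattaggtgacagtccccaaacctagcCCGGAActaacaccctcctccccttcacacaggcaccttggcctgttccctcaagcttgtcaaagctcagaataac

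The Chrng window held 3 E-boxes, of which 2 read CAGCTG, with first bases 155, 132 and 75 bases before the start. The Chrna1 window also held 3, of which 2 read CAGCTG, at 92, 73 and 44 bases before the start. The Chrne window held 1 E-box, a CAGCTG at 138 bases before the start, and 1 N-box at 76 bases; the other 4 promoter windows held no N-box. Musk and Chrnb1 held 3 E-boxes each, with 1 CAGCTG in Musk and 0 in Chrnb1. Among all 32851 promoter windows of 250 bases, 12.2% held at least 3 E-boxes, 4271 windows held at least 1 CAGCTG, 1.26% held at least 2, and 3952 windows held an N-box. Matches of letters describe these windows and do not show binding. None of the 5 promoter windows touched a peak in any of the 20 libraries; across the 19080 windows of protein-coding genes, 0.975% to 2.73% touched one in the WT libraries and 0.0052% to 4.14% in the KO libraries.

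The gamma subunit gene Chrng (gene ID 11449, chr1:87205811-87211835, 6025 bp, plus strand) had the widest range of cover. It had no peak in either WT library at day 0, cover of 26.6% and 30.3% at day 1 in control condition, and 90.7% and 92.9% at day 5 in control condition. Both day 1 restricted libraries and both day 5 restricted libraries had cover of 0. The gene was thus marked in the 4 control libraries after day 0 and in none of the other 6 WT libraries.

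In the 2 day 5 control libraries the peaks over Chrng began 258 and 428 bp past the start of the gene and ran to 6412 and 6465 bp, past its end at 6025 bp. They did not reach the neighbouring translation factor gene Eif4e2, which lies 2075 bp away and had cover of 63.3% to 91.3% in every WT library. The authors' fold enrichment of the best Chrng peak was 3.89 and 3.45 at day 5, with −log10 q of 7.23 and 5.30. The day 1 control cover was of another kind: it came from 3 and 4 short peaks of at most 814 bp with −log10 q of at most 2.89, and only 538 of the 2887 bp covered in either library were covered in both. At day 5 the replicates shared 5294 of 5767 bp.

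**Figure D1:**
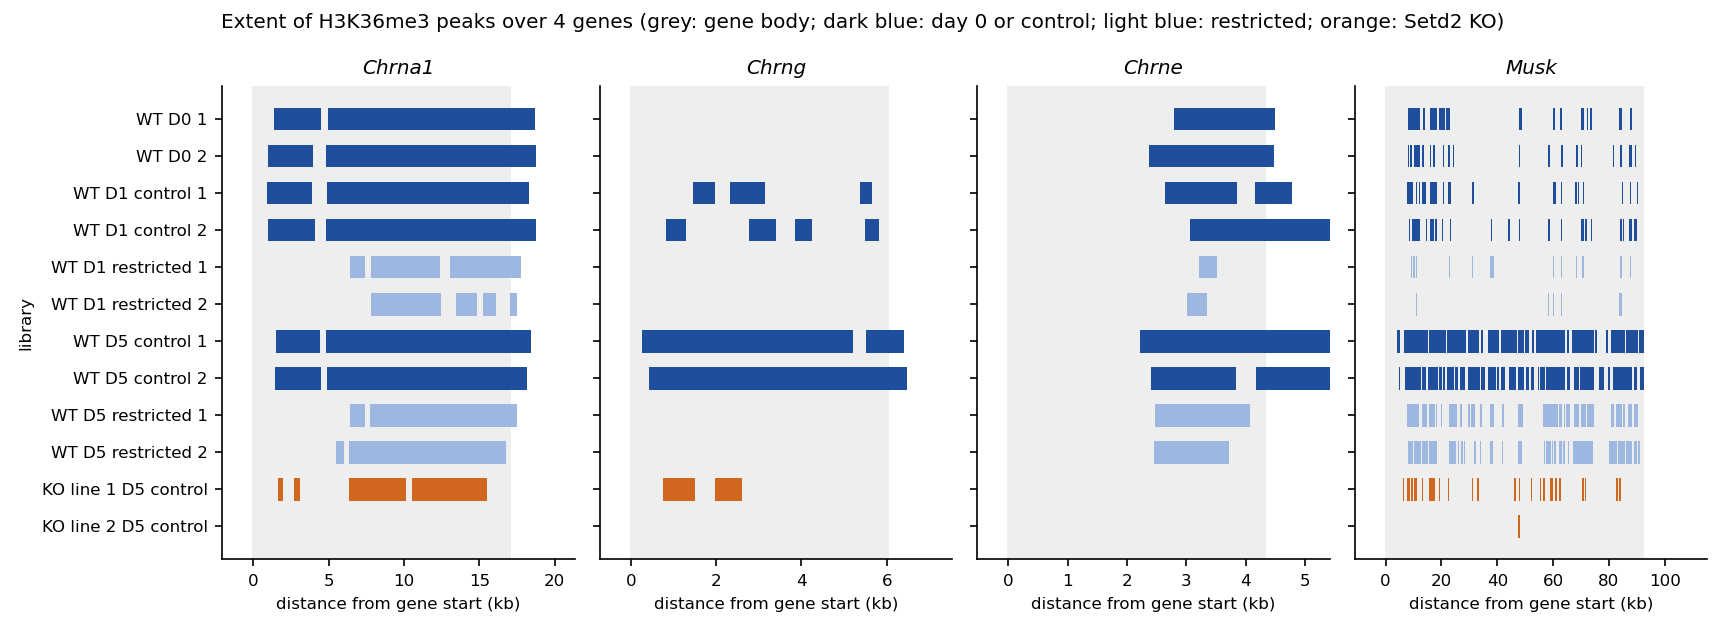
Extent of H3K36me3 peaks over Chrna1, Chrng, Chrne and Musk in the 10 WT libraries and the day 5 control library of each KO line; the x axis is distance from the gene start in kb, each row is a library, grey marks the gene body, and bars that meet the right edge of a panel go on beyond it. Chrng peaks run from 258 or 428 bp to past the gene end only at day 5 in control condition, and the Chrna1 peaks near the start are missing in the 4 restricted libraries.

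The alpha subunit gene Chrna1 (gene ID 11435, chr2:73563281-73580338, 17058 bp, minus strand), which carries the acetylcholine binding sites, was already marked in myoblasts. Its cover was 89.0% and 89.3% at day 0, 88.6% and 90.0% at day 1 in control condition, and 88.9% and 89.5% at day 5 in control condition. In restricted cells it was 56.4% and 40.4% on day 1, and on day 5 it was 60.4% and 63.8%. Every restricted library was below every other WT library.

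The widest Chrna1 peak measured 13301 to 13984 bp in the 6 day 0 and control libraries, with an authors' fold of 5.02 to 5.82, higher than that of 98.8% to 99.8% of the peaks in the same list. In the restricted libraries the widest peak measured 4630 to 10388 bp. The peak over the gene's 3′ end ran on over the non-coding gene Gm30940, which overlaps 12.3% of the Chrna1 body.

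The beta subunit gene Chrnb1 (gene ID 11443, chr11:69784036-69795966, 11931 bp, minus strand) had the steadiest cover of the 7. It was 83.4% and 76.0% at day 0, 79.1% and 87.0% at day 1 in control condition, 75.6% and 73.1% at day 1 under restriction, 83.4% and 86.9% at day 5 in control condition, and 75.6% and 77.2% at day 5 under restriction. The gene lies 9 bp from the zinc finger gene Zbtb4, and in 9 of 10 WT libraries a peak over Chrnb1 ran on into Zbtb4.

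The delta subunit gene Chrnd (gene ID 11447, chr1:87190597-87200070, 9474 bp) lies next to Chrng. Its cover was 75.2% and 75.7% at day 0, 75.5% and 78.4% at day 1 in control condition, and 85.2% and 81.9% at day 5 in control condition. In restricted cells it was 24.7% and 14.8% on day 1, and on day 5 it was 35.8% and 34.8%. So Chrnd was marked in both day 0 libraries, in which Chrng had no peak, and was low in the 4 restricted libraries. What remained in them was in 3 or 4 peaks of at most 1443 bp, and at day 1 the 2 restricted libraries shared 654 of the 3085 bp covered in either.

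The epsilon subunit gene Chrne (gene ID 11448, chr11:70614883-70619213, 4331 bp, minus strand) had lower cover. It was 35.5% and 45.2% at day 0, 32.2% and 29.4% at day 1 in control condition, 7.11% and 7.92% at day 1 under restriction, 48.6% and 36.8% at day 5 in control condition, and 36.7% and 29.1% at day 5 under restriction. The day 1 restricted libraries stood below the other 8. Of the Chrne body, 30.1% overlaps the gene 4930544D05Rik, and the kinase gene Mink1 lies 400 bp away; a peak over Chrne ran on into Mink1 in the 4 day 1 and day 5 control libraries, so marking of the epsilon gene cannot be told apart from that of its neighbours.

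Musk (gene ID 18198, chr4:58285729-58377848, 92120 bp, plus strand) encodes the muscle kinase through which neural agrin, bound by Lrp4, starts receptor clustering. Its cover was 18.8% and 12.3% at day 0, 15.4% and 16.1% at day 1 in control condition, and 6.58% and 2.70% at day 1 under restriction. By day 5 it had reached 78.6% and 69.5% in control condition and 44.5% and 43.2% under restriction. The 4 day 5 libraries stood above the 6 earlier ones, and within day 5 the control libraries were higher. The low cover at day 0 lay in 13 and 19 separate peaks, which shared 7483 of 21163 bp between replicates, against 59148 of 77285 bp at day 5 in control condition.

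Rapsn (gene ID 19400, chr2:91035472-91045729, 10258 bp) encodes rapsyn, which anchors receptors under the membrane. Its cover was 58.4% and 65.2% at day 0, 40.0% and 26.1% at day 1 in control condition, 22.2% and 17.6% at day 1 under restriction, 79.0% and 70.8% at day 5 in control condition, and 24.0% and 22.2% at day 5 under restriction. The order was day 5 control, day 0, day 1 control and then the restricted groups. The whole Rapsn body lies inside the annotated gene Gm13778, so the mark cannot be assigned to either alone.

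**Figure D2:**
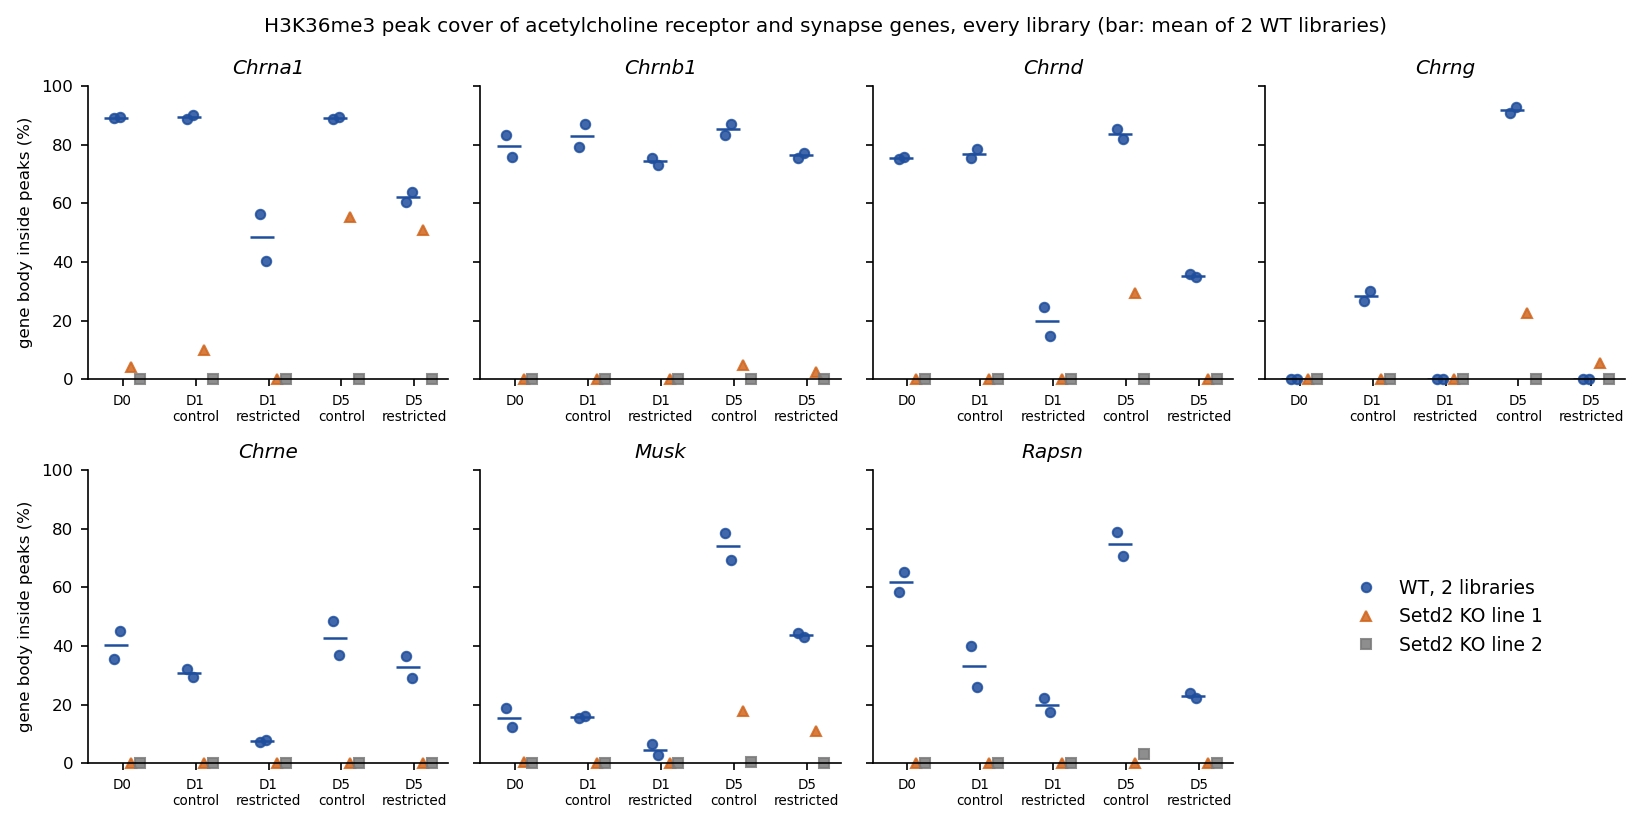
Percentage of each gene body inside H3K36me3 peaks in every library; the x axis gives the 5 conditions, circles are the 2 WT libraries with a bar at their mean, and triangles and squares are the single libraries of KO line 1 and KO line 2. Chrng is at 0 in 6 of 10 WT libraries, Chrnb1 stays between 73.1% and 87.0%, and KO line 1 has cover of Chrna1 of 55.3% and 51.0% at day 5.

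Differences between WT groups were tested with limma over 9514 genes whose mean cover in the 10 WT libraries was at least 5%, a filter that all 7 genes passed, with Benjamini-Hochberg adjustment over all of them and a threshold of 0.05. Differences are in percentage points, given with the standard error and n = 2 libraries a group. Contrasts that share a group of libraries are not independent of each other.

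Differentiation in control condition changed the gamma subunit and Musk, while the 4 other subunits did not pass the test between day 1 and day 5 or between day 0 and day 5. Rapsn, already at 61.8% at day 0, was lower at day 1 and higher again at day 5. From day 1 to day 5, Chrng rose by 63.4 points ± 2.85 (SE, limma adjusted p = 2.55e-06), Musk rose by 58.3 points ± 4.18 (adjusted p = 3.14e-05) and Rapsn rose by 41.8 points ± 5.54 (adjusted p = 0.00100). These 3 of 7 genes compare with 17.1% of all genes tested that rose and 5.95% that fell, and the median difference was 11.9 points for the 7 and 3.89 points for all genes. From day 0 to day 5, Chrng rose by 91.8 points (adjusted p = 9.96e-07), the 7th highest of 9514 differences, and Musk rose by 58.5 points (adjusted p = 2.00e-05), where 12.2% of all genes rose and 15.6% fell. Rapsn differed by 13.1 points between day 0 and day 5 (adjusted p = 0.122). That difference was 8.94 to 17.2 points with 1 library left out and turned to -10.3 points in lists cut to equal covered length. Chrng had cover of 0 in both libraries of 3 groups, which leaves its spread to be estimated from the other 2 groups. For day 5 minus day 1, genes higher and lower numbered 1627 and 566, but 568 and 902 in lists cut to equal covered length and 988 and 1176 after subtracting each library's median; for day 5 minus day 0 they numbered 1157 and 1484, and 801 and 1330 or 1615 and 1298. In the cut lists the Rapsn difference from day 1 to day 5 was 6.69 points (adjusted p = 0.64), and the day 0 to day 5 difference of Chrnd, 8.10 points ± 4.15 (adjusted p = 0.195), became 39.3 points (adjusted p = 0.00042).

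From day 0 to day 1 in control condition, Chrng rose by 28.4 points ± 2.85 (adjusted p = 0.00192) and Rapsn fell by 28.7 points ± 5.54 (adjusted p = 0.0230). Among all genes 0.967% rose and 5.67% fell, with a median of -5.31 points; subtracting each library's median turned 92 higher and 539 lower into 227 and 108, and the cut lists gave 83 and 113. Both calls were lost when only the 4 libraries compared were fitted (adjusted p = 0.13 and 0.17), a limma fit that called 0 of 9514 genes after adjustment and 1898 at an unadjusted p under 0.05, and the Chrng difference was 0 when peaks with −log10 q under 3 were dropped and in the cut lists. Rapsn also lost its call without day 0 replicate 2 (adjusted p = 0.051), without day 1 control replicate 2 (adjusted p = 0.12), in the cut lists (-17.0 points, adjusted p = 0.40), with peaks within 1 kb merged (-23.0 points, adjusted p = 0.17) and after subtracting medians (-20.3 points, adjusted p = 0.096).

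Methionine restriction was compared with control condition on the same day. At day 1, 4 of the 7 genes passed the test, all of them lower. At an unadjusted limma p under 0.05 all 7 were lower, where 4516 of 9514 genes differed in either direction. Chrnd fell by 57.2 points ± 4.15 (SE, limma adjusted p = 4.97e-05) and Chrna1 fell by 41.0 points ± 4.67 (adjusted p = 0.000334). Chrng fell by 28.4 points ± 2.85 (adjusted p = 0.000173) and Chrne fell by 23.3 points ± 5.18 (adjusted p = 0.00855). With only peaks of −log10 q of at least 3, Chrng had no cover in any of these 4 libraries and Chrne differed by -14.1 points (adjusted p = 0.41), so that 2 of the 4 calls were left, Chrnd and Chrna1. Of all genes 36.0% fell and 2.38% rose. Chrnb1, Musk and Rapsn differed by -8.67, -11.1 and -13.2 points (adjusted p = 0.0878, 0.0662 and 0.0944). With 1 library left out these ranged from -12.6 to -4.74, from -13.1 to -9.19 and from -20.1 to -6.25 points; Musk passed without either day 5 control library (adjusted p = 0.043 and 0.044) and Rapsn without day 1 control replicate 2 (-20.1 points, adjusted p = 0.042). After subtracting each library's median the differences of Chrnb1 and Musk turned to 6.51 and 4.05 points, and that of Rapsn was 3.67 points in the cut lists. With peaks within 1 kb merged, all 7 genes were called lower, where 3109 of 9640 genes fell and 184 rose. The 2 restricted libraries lay below the 2 control libraries for all 7 genes, as they did for 59.6% of all genes.

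At day 5, 5 of the 7 genes fell under restriction, against 41.5% of all genes that fell and 4.32% that rose. Chrng fell by 91.8 points ± 2.85 (SE, limma adjusted p = 1.85e-06), the 3rd lowest of 9514 differences. Rapsn fell by 51.8 points ± 5.54 (adjusted p = 0.000183), Chrnd fell by 48.2 points ± 4.15 (adjusted p = 6.10e-05), Musk fell by 30.2 points ± 4.18 (adjusted p = 0.000633) and Chrna1 fell by 27.1 points ± 4.67 (adjusted p = 0.00200). Chrnb1 and Chrne differed by -8.78 and -9.79 points (adjusted p = 0.0755 and 0.158). With 1 library left out they ranged from -10.5 to -7.04 and from -15.7 to -3.88 points, and after subtracting each library's median they turned to 7.90 and 6.88 points. The median difference was -30.2 points over the 7 genes and -9.16 points over all genes, and libraries did not overlap for 7 of 7 genes and, in the lower direction, for 65.4% of all genes.

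The restricted lists were shorter, and the direction over all genes turned with the scaling. Subtracting each library's median cover changed the day 5 split from 411 higher and 3945 lower genes to 3757 higher and 1395 lower, and the day 1 split from 226 and 3422 to 3518 and 1245, with the median over all genes moving from -9.16 to 7.52 points and from -7.99 to 7.20 points. Lists cut to equal covered length gave 1285 higher and 1683 lower at day 5 and 677 and 1614 at day 1, of 8329 genes. In the cut lists Chrna1 and Chrnd still fell at day 5, while Musk differed by -13.7 points (adjusted p = 0.073) and Rapsn by -6.30 points (adjusted p = 0.59). Chrng had cover there only in the day 5 control group, which alone brought it past the filter, so no test of it in these lists is given. At day 1 Chrng had no peak left in the cut lists, and Chrne differed by -10.1 points (adjusted p = 0.71). Chrne also lost its day 1 call after subtracting each library's median (-8.09 points, adjusted p = 0.25). With that centring Chrna1, Chrnd and Musk differed at day 5 by -10.4, -31.5 and -13.5 points (adjusted p = 0.042, 0.00021 and 0.0085), and Chrna1 and Chrng differed at day 1 by -25.8 and -13.2 points (adjusted p = 0.000974 and 0.014).

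The difference from control under restriction was wider at day 5 than at day 1 for the gamma subunit and rapsyn. The day 5 effect minus the day 1 effect was -63.4 points ± 4.04 for Chrng (limma adjusted p = 0.000114), the 8th lowest of 9514, and -38.6 points ± 7.84 for Rapsn (adjusted p = 0.0282); 3.58% of all genes had a lower and 1.62% a higher value, 341 and 154 in number, against 352 and 242 after subtracting each library's median and 245 and 342 in the cut lists. Since the restricted libraries were at 0 on both days, the Chrng value is the difference between its control groups with the sign turned and does not measure how strongly restriction acted. The Rapsn call was lost without each of 6 of the 8 WT libraries of day 1 and day 5, left out 1 at a time (adjusted p = 0.067 to 0.11), in the cut lists (-9.97 points, adjusted p = 0.69), with peaks within 1 kb merged (-20.8 points, adjusted p = 0.39), with only peaks of −log10 q of at least 3 (-36.6 points, adjusted p = 0.15) and on an arcsine square root scale (adjusted p = 0.0505). For the other 5 genes the 2 effects differed by -19.1 to 13.8 points and did not pass the test (adjusted p = 0.109 to 0.995). Among them the Chrna1 value, the 13.8 points, ranged from 5.82 to 21.9 points with 1 library left out.

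**Figure D3:**
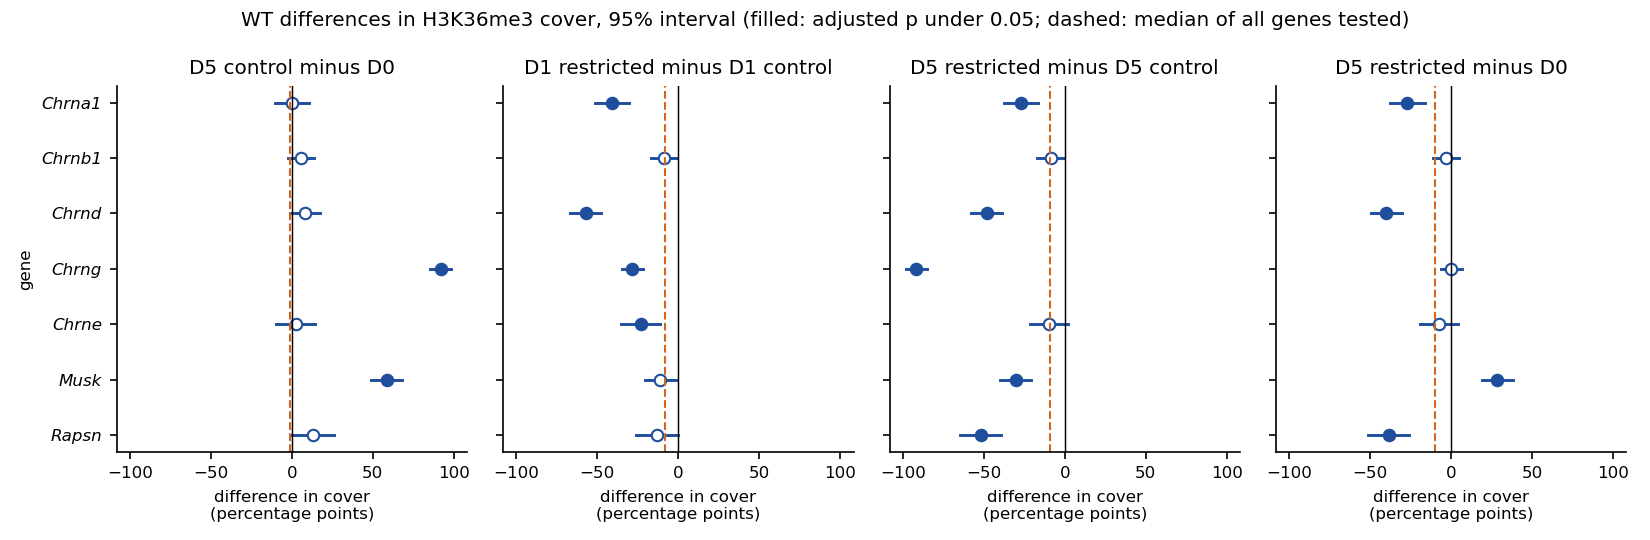
Differences in cover between WT groups for the 7 genes, in percentage points, with 95% intervals; filled points have a limma adjusted p under 0.05 and the dashed line is the median of the 9514 genes tested. Chrng sits at 91.8 points for day 5 control minus day 0 and at -91.8 points for day 5 restricted minus control, and at 0 for day 5 restricted minus day 0.

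Cells at day 5 under restriction were also compared with the day 0 cells they came from. Musk was higher than at day 0 by 28.3 points ± 4.18 (SE, limma adjusted p = 0.000782), the 60th highest of 9514, while 3 genes were lower: Chrnd differed by -40.1 points ± 4.15 (adjusted p = 0.00012), Rapsn by -38.7 points ± 5.54 (adjusted p = 0.000678) and Chrna1 by -27.1 points ± 4.67 (adjusted p = 0.00184). Of all genes 4.05% were higher and 43.5% lower, 385 and 4139 in number, against 4280 and 1402 after subtracting each library's median and 1089 and 2004 in the cut lists. Chrng had cover of 0 in all 4 libraries, with a 95% interval of the difference of -6.53 to 6.53 points. In the cut lists Rapsn and Chrna1 differed by -16.6 and -13.4 points (adjusted p = 0.15 and 0.14), and with centring Chrna1 differed by -8.01 points (adjusted p = 0.094). Chrnd passed with -26.4 points in the cut lists, -21.1 with centring and -63.4 with strong peaks, those of −log10 q of at least 3, and with centring Rapsn differed by -19.7 and Musk by 47.3 points.

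Within restriction, day 5 was higher than day 1 for Musk by 39.2 points ± 4.18 (SE, limma adjusted p = 0.000668), for Chrne by 25.4 points ± 5.18 (adjusted p = 0.0166) and for Chrnd by 15.6 points ± 4.15 (adjusted p = 0.0444), where 8.73% of all genes rose and 3.71% fell, 831 and 353 in number, against 432 and 565 after subtracting each library's median and 261 and 409 in the cut lists. The Musk call held in every alternative run. Chrna1 differed by 13.7 points (limma adjusted p = 0.0979), and by 5.69 to 21.7 points with 1 library left out. Chrne lost its call without any 1 of the 4 restricted libraries (adjusted p = 0.053 to 0.11), without the bases it shares with 4930544D05Rik (8.90 points, adjusted p = 0.33), in the cut lists (10.6 points, adjusted p = 0.82) and with only peaks of −log10 q of at least 3 (14.6 points, adjusted p = 0.44). Chrnd kept its call in 6 of 21 alternatives and differed by -1.13 points in the cut lists.

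Each body was split into 3 segments of equal length, 5′, middle and 3′, for the 5 genes whose strand was known. In Chrna1 the 5′ segment had mean cover of 67.4% at day 0, 68.0% at day 1 and 67.6% at day 5 in control condition, and 0% and 1.59% under restriction at day 1 and day 5. The 3′ segment of Chrna1 was at 100% in the 3 unrestricted groups and at 73.6% and 97.2% under restriction. So at day 5 the Chrna1 cover under restriction differed from control mainly in the 5′ segment. The medians over 7711 genes were 20.7%, 61.3% and 78.4% in the 5′, middle and 3′ segments at day 5 in control condition and 3.52%, 36.3% and 63.8% under restriction, with the widest gap in the middle segment.

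Chrne had no cover in its 5′ segment in any WT group, and 83.6% to 100% of its 3′ segment was covered in the unrestricted groups, the end nearest to its marked neighbours. Musk at day 0 had 27.8% of its 5′ segment covered, and 5.51% and 13.3% of its middle and 3′ segments. At day 5 in control condition the 3 Musk segments stood at 70.0%, 76.8% and 75.4%, and under restriction at 44.0%, 29.5% and 58.1%. Chrnb1 kept 52.1% to 59.6% of its 5′ segment covered in all 5 WT groups. These are group means of 2 libraries, given as a description.

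**Figure D4:**
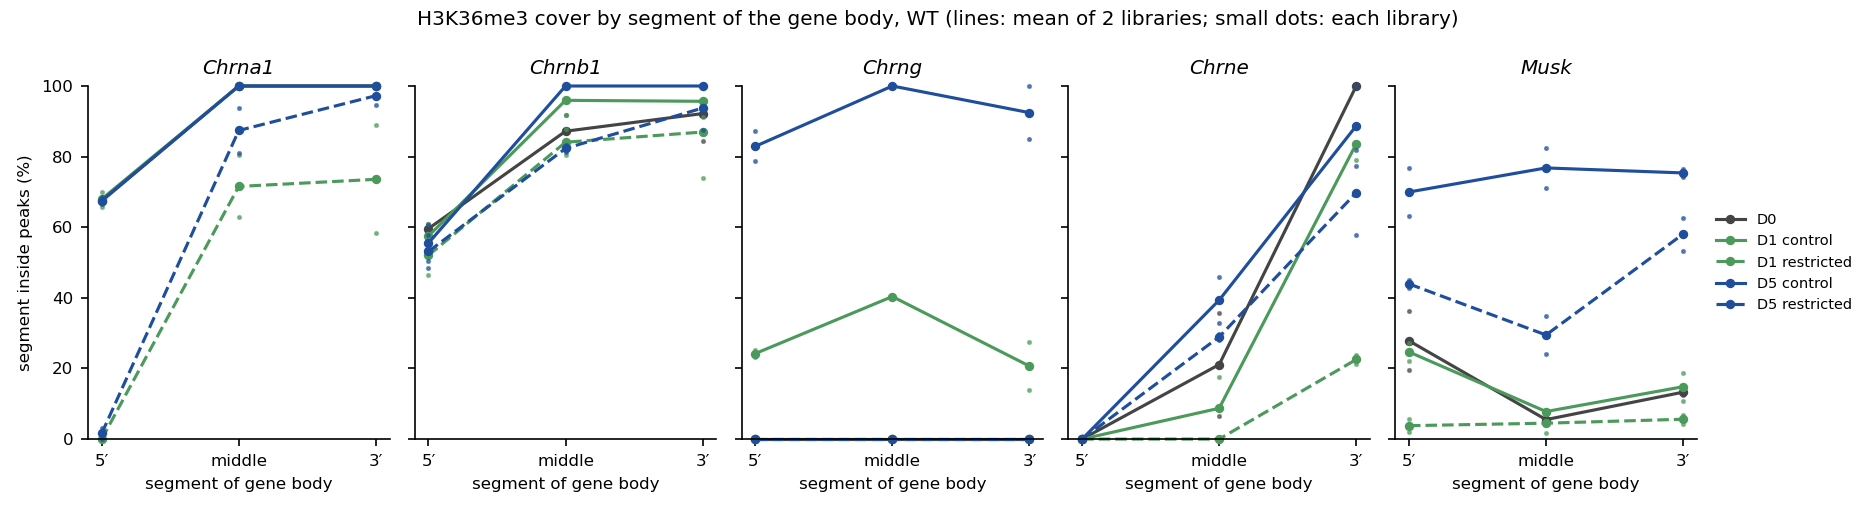
Cover of the 5′, middle and 3′ segment, each 1 of 3 of equal length, of 5 gene bodies in the WT groups; the y axis is the percentage of the segment inside peaks, lines join the means of 2 libraries, small dots are the libraries, and dashed lines are restricted groups. The 5′ segment of Chrna1 drops from 67.6% to 1.59% at day 5 while its 3′ segment stays at 97.2%, and the 3 Chrng groups at 0 lie on one another.

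Setd2 KO libraries had little cover of these genes; the peak lists do not measure the SETD2 protein. Averaged over the 5 conditions, WT libraries exceeded KO libraries by 79.0 points for Chrnb1, 63.6 for Chrna1, 55.2 for Chrnd, 42.2 for Rapsn, 30.9 for Chrne and 27.8 for Musk, and both KO libraries lay below both WT libraries in all 5 conditions. For these 6 genes the two-sided exact permutation test within conditions gave p = 0.000257, which no result of its 7776 arrangements can go below, with an adjusted p of 0.000334. With only peaks of −log10 q of at least 3 the difference was 22.2 points for Rapsn and 16.02 for Musk, and without shared bases 14.01 for Chrne. The 2 KO sources, labelled as lines, recur in all 5 conditions and the test treats their libraries as independent, so the genotype is replicated over at most 2 lines and these p-values are too small for a comparison of lines. WT was higher by that test for 96.8% of 8861 genes and lower for 0.0677%, so the 6 of 7 are near the background. Mean KO cover was 0% for Chrne, 0.312% for Rapsn, 0.726% for Chrnb1, 2.95% for Chrnd and 2.97% for Musk. These genes passed the filter of 5% over the 20 libraries through their WT cover, and the same filter chose the background. The p-values are therefore a description and not further support for the differences. For Chrng the difference was 21.2 points (exact permutation p = 0.0556, adjusted p = 0.0571), with KO below WT in the 2 control conditions in which WT cells had any Chrng cover. All WT and KO libraries were at 0 for Chrng at day 0 and at day 1 under restriction. Arrangements in those conditions leave its value unchanged, so its p could not get as low as that of the other genes. The missed threshold is not read as a lack of difference.

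Most of the remaining cover was in KO line 1 at day 5. A peak lay on the body in 14 of 70 pairs of gene and KO library, against 23.5% of such pairs over 8861 genes, and a peak with −log10 q of at least 3 in 4 of 70, against 9.51%. Chrna1 in KO line 1 had cover of 4.13% at day 0, 9.83% at day 1 in control condition, 0 at day 1 under restriction, 55.3% at day 5 in control condition and 51.0% at day 5 under restriction. At day 5 in control condition the 9425 covered bp all lay inside WT peaks and amounted to 61.9% of the WT mean. Under restriction at day 5 the covered 8699 bp amounted to 82.1% of the WT mean, and 96.4% of them lay inside peaks of either WT library. KO line 2 had cover of 0 for Chrna1 in all 5 conditions.

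The other genes kept less. In KO line 1 at day 5 in control condition cover was 29.5% for Chrnd, 22.7% for Chrng, 17.8% for Musk and 4.77% for Chrnb1, which is 35.3%, 24.8%, 24.0% and 5.60% of the WT mean. Rapsn and Chrne had no peak in that library. That library had a peak on 5 of the 7 genes and on 74.6% of the 8861 genes. The other KO line 1 libraries had a peak on 2 of 7 genes at day 0 (49.4% of all genes), on 1 and 0 at day 1 in control and restricted cells (37.6% and 2.63%), and on 4 at day 5 under restriction (51.6%). Chrng in KO line 1 at day 5 under restriction had 1 peak of 339 bp (−log10 q of 1.35, 5.63% cover) where both WT libraries had none. KO line 2 had a peak on 2 of 7 genes at day 5 in control condition, 0.599% of Musk and 3.12% of Rapsn, against 13.9% of all genes, and on none of the 7 at day 0, in both day 1 conditions or at day 5 under restriction (1.23%, 1.63%, 0.260% and 2.42% of all genes). The difference between the libraries labelled KO line 1 and KO line 2 cannot be assigned to lines, since it cannot be told apart from that between single libraries.

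The wider set of synapse genes, a list of 52 partners that includes the agrin receptor Lrp4, the adaptor Dok7, the dystrophin complex and neuregulin receptors, was described by counts. Of the 52 genes, 39 had enough cover to be tested. Of these, Scn4a and Dtna passed the cover filter through the day 5 control group alone, so counts are also given over the other 37, and no test is given for either gene. From day 1 to day 5 in control condition 16 rose and 1 fell (14 and 1 of the 37), against 17.1% and 5.95% of all genes, with a list median of 7.45 points against 3.89 for all genes. Mean cover of the muscle sodium channel Scn4a was 0% at day 0 and in both day 1 groups, 80.0% at day 5 in control condition and 15.5% at day 5 under restriction. Among the largest rises was that of the adhesion molecule Ncam1, from 20.4% to 69.4%, while the kinase Src fell from 63.4% to 40.2% (limma adjusted p at most 0.00405); the Src call was lost with only peaks of −log10 q of at least 3 (-9.15 points, adjusted p = 0.32), and in the cut lists Ncam1 rose by 29.7 and Src differed by -34.8 points. From day 0 to day 5, 14 rose (12 of the 37), among them the neuregulin receptor Erbb3 from 9.54% to 88.1%, and 1 fell, Src again, from 83.5%, against 12.2% and 15.6% of all genes. From day 0 to day 1 Erbb3 rose by 41.9 points (adjusted p = 0.00180) and Src fell by 20.1 points (adjusted p = 0.0264), where 0.967% and 5.67% of all genes rose and fell. Both calls were lost in the cut lists (20.4 and -24.3 points, adjusted p = 0.057 and 0.0502) and with only the libraries compared, where the differences are the same (adjusted p = 0.13 and 0.14). With only peaks of −log10 q of at least 3 they were 27.8 and -37.6 points and both passed. Src also lost its call after subtracting medians (-11.7 points, adjusted p = 0.13) and without each of 6 WT libraries left out 1 at a time (adjusted p = 0.053 to 0.14), those of day 0, day 1 control and day 5 restricted.

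Under restriction 20 of the 39 fell at day 1 and 25 at day 5 (20 and 23 of the 37), and 0 rose on either day by limma, also at an unadjusted p under 0.05. Of all genes 36.0% and 41.5% fell. After subtracting each library's median the direction in this list turned at day 1, where 10 rose and 8 fell, but not at day 5, where 9 rose and 15 fell. Over all genes 3518 rose and 1245 fell at day 1, and 3757 rose and 1395 fell at day 5. In the cut lists, where 38 could be tested, it did not turn: 1 rose and 12 fell at day 1 and 2 rose and 20 fell at day 5. Over all genes there, 677 rose and 1614 fell, and 1285 rose and 1683 fell. These counts were not repeated without Scn4a and Dtna. As measured, medians were -11.8 and -18.7 points against -7.99 and -9.16 for all genes. At day 1 the largest falls were of the intermediate filament gene Nes, from 91.1% to 29.1%, Erbb3, from 51.4% to 2.56%, the adaptor Crk, from 75.1% to 35.3%, and Git1, from 63.2% to 24.3%. All 4 passed in the cut lists and after subtracting medians, but Erbb3 then differed by -19.3 points in the cut lists (-26.7 with strong peaks), and Crk and Git1 by -24.7 and -23.7 points after subtracting medians (Crk by -65.9 with strong peaks). At day 5 the largest among the 37 included those of Nes, from 84.4% to 16.2%, Fyn, from 75.3% to 23.9%, and the dystroglycan gene Dag1, from 88.5% to 38.7%; Fyn differed by -30.1 points in the cut lists and Dag1 by -33.1 after subtracting medians. From day 1 to day 5 within restriction 10 rose (9 of the 37), led by Erbb3, from 2.56% to 59.3%, and Lrp4, from 37.5% to 76.2%, and 0 fell by limma, with 1 lower at an unadjusted p under 0.05, against 8.73% and 3.71% of all genes; after subtracting medians 4 rose and 1 fell. Compared with day 0, restricted cells at day 5 had 5 of the 39 higher and 14 lower (3 and 14 of the 37), against 4.05% and 43.5% of all genes. That direction also turned, to 22 higher and 6 lower after subtracting medians and 10 and 9 in the cut lists.

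Nicotinic subunits of neurons and sensory cells gave a contrast: of 11 genes, 10 had mean WT cover under 5% and 1, Chrna10, named here after its values were seen, passed the filter, through 1 group: its mean cover was 38.3% at day 5 in control condition and 0% in the other 4 WT groups. No test is given for it, since that group alone brought it past the filter. Of 11 myogenic regulators 9 could be tested, of which Mef2c (32.9% at day 5 in control condition, 1.94% at day 5 under restriction and 0% in the other WT groups) passed the filter through 1 group alone and is left out of the counts that follow, unless stated. Of the other 8, 1 rose and 1 fell from day 1 to day 5 in control condition, against 17.1% and 5.95% of all genes. Under restriction 7 fell at day 1 and 8 at day 5, against 36.0% and 41.5% of all genes. After subtracting each library's median the count was made only over all 9, Mef2c included, so its day 5 part is a description. There 4 fell and 1 rose at day 1, and 5 fell at day 5. Over all 9514 genes 1245 fell and 3518 rose at day 1, and 1395 fell and 3757 rose at day 5. Myog, a factor that binds E-boxes, had cover of 0% at day 0, 71.9% and 92.6% at day 1 and day 5 in control condition, and 0% in both restricted groups. Myod1 had cover of 52.6%, 59.0% and 72.6% at day 0, day 1 and day 5 in control condition and 0% in both restricted groups. The part of these genes in the receptor gene values was not tested.

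The genes whose cover was nearest to each receptor gene over the 20 libraries, by root mean square difference and leaving out genes within 100 kb, differed from gene to gene. For Chrng they were Mybph, Klhl41 and Jsrp1, at 6.35, 7.75 and 8.55 points. For Chrna1 they were Zfp568, Camk2g and E2f4 (4.91, 4.98 and 6.01 points), for Chrnd Dda1, Fbxw2 and Brms1 (4.70, 5.22 and 5.39 points), and for Chrnb1 Nop9, Ttf1 and Iws1 (3.13 to 3.33 points). For Musk they included Tom1 and Plaat3 (4.26 and 5.15 points), and for Rapsn they were Megf10, Bin3 and Yy1 (5.26, 5.65 and 6.60 points). Chrne had no WT group mean of 50% or more and was not matched. The match is a description over libraries that share peak calling and depth.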

How the data were processed

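H3K36me3 was measured by ChIP-seq in C2C12 cells (75-nt single-end reads, per the labels' protocols), with Drosophila chromatin added as spike-in, per the labels' protocols. The deposited files are 20 lists of broad peaks, 1 for each library and not pooled, in which the authors give for each peak a score, a fold enrichment (a ratio) and −log10 p and q values; the build GRCm38 is named in the submitters' processing notes. The aligner, peak caller, control and any use of the spike-in are not given in the sources used here. The lowest deposited −log10 q was 1.00 to 1.03 in 19 lists and 1.96 in the list of KO line 2 at day 1 under restriction, and sequencing depth is unknown.

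Peaks of each library were merged and the percentage of each RefSeq GRCm38.p6 gene body inside them was computed; 19304 genes that code for protein and span 2 kb or more entered; 49943 genes of all types were used for neighbours. WT groups were compared with limma 3.58.1 in R 4.3.3 (1 model of 5 groups, trended and robust variance) on the 9514 genes with mean WT cover of at least 5%, with Benjamini-Hochberg adjustment. WT and KO were compared with an exact permutation test within conditions on 8861 genes with mean cover of at least 5% over 20 libraries. The code was tested on simulated data. Python 3.11.15 with numpy 2.4.6 and pandas 2.3.3 was used for the rest.

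Samples were grouped by their labels; the input sample was not used here. Deviations of same-numbered WT replicates correlated at -0.44 to 0.061 between groups, so replicate numbers were not used as pairs. All 7 genes are named; of the synapse list, at most 4 genes per direction with the largest change among those called with libraries that do not overlap; and the 3 most similar genes of each member with a WT group mean of at least 50%. Values of some genes that these rules name are not reported here. The members, lists and tests were chosen with earlier results of these data known. Alternatives tried were peaks with −log10 q of at least 3, lists cut by the authors' fold to the same covered length (109.9 Mb), peaks within 1 kb merged, no gene filter, bodies without shared bases or extended by 1 kb, an arcsine square root scale, centring, a replicate block, plain eBayes, only the libraries compared, each WT library left out, and for the KO test each KO line alone or without day 1 restriction.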

Additional observations from a re-analysis of the deposited data

Results flagged for a closer look

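For Chrng the day 5 difference between restricted and control cells minus the day 1 difference was -63.4 points (limma interaction, adjusted p = 0.000114), with both restricted libraries below both control libraries on each day. All 4 restricted libraries were at 0, so this value is the day 5 minus day 1 difference of the control groups with its sign turned, and it does not measure a change in the size of the restriction effect. For Rapsn the same difference was -38.6 points (limma interaction, adjusted p = 0.0282), with the same order of libraries on both days. The Rapsn call was lost without each of 6 of the 8 WT libraries of day 1 and day 5, left out 1 at a time (adjusted p up to 0.11) and in lists cut to equal covered length (-9.97 points, adjusted p = 0.69).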

How the results depend on the processing

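For counts of called genes among the 7, keeping only peaks with −log10 q of at least 3 gave 1 for day 1 control minus day 0, 2 for day 1 restriction, 1 for the difference between restriction effects, and 4 KO pairs with a peak. Lists of matched length gave 1, 2, 3 and 1 for these same 2 contrasts, day 5 restriction and the difference of effects, 2 for day 5 restricted minus day 0 and 1 for day 5 minus day 1 within restriction. With strong peaks or matched lengths, counts for day 5 restriction and the difference of effects include Chrng. It passed the filter there through the day 5 control group alone, so its calls in them are no support. Merging peaks within 1 kb gave 1, 7 and 1 for the first 2 contrasts and the difference of effects, unshared bodies gave 1 each for the first contrast and the difference of effects, the arcsine scale 1 for the difference of effects, centring 1 and the libraries compared alone 0 for day 1 control minus day 0 (2 of 7 at an unadjusted p under 0.05 by limma). Of the synapse list, day 1 control minus day 0 called 1 with matched lengths, 5 with centring and 0 with only the libraries compared (7 at an unadjusted p under 0.05); day 1 restriction called 13 with matched lengths; the difference of effects 3 on the arcsine scale; and day 5 minus day 1 within restriction 6 with strong peaks, 4 with matched lengths, 6 with unshared bodies, 5 with centring and 5 with only the libraries compared. Over all genes, strong peaks gave 42 higher and 771 lower for day 1 control minus day 0, 132 and 2577 for day 1 restriction and 314 and 218 for the difference of effects, of 8181; merging gave 75 and 444, 184 and 3109, and 137 and 381, of 9640; unshared bodies gave 85 and 480 for the first and 147 and 323 for the last, of 9162; and the arcsine scale 119 and 188 for the last, of 9514.

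Leaving out 1 WT library at a time gave ranges of 1 to 2, 3 to 3, 2 to 2, 4 to 5, 5 to 5, 1 to 2, 4 to 4 and 1 to 3 called members for day 1 control minus day 0, day 5 minus day 1 and day 5 minus day 0 in control condition, day 1 and day 5 restriction, the difference of effects, day 5 restricted minus day 0, and day 5 minus day 1 within restriction, and 6 to 6 for WT minus KO. The synapse list gave 1 to 2, 14 to 17, 14 to 16, 13 to 21, 20 to 27, 2 to 7, 14 to 20 and 3 to 10. Where an arm was left with 1 library, it was assumed to vary like the other groups. These ranges count calls in both directions together. Calls over all genes also moved widely with the library left out. The ranges therefore describe how stable the counts were, and are not compared with the share of all genes.

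Signs turned for values that had not passed the test. For day 1 control minus day 0, merging gave -1.67 for Chrna1, -3.48 for Chrnd and -0.163 for Musk, and strong peaks gave -2.92 for Musk. For day 5 minus day 1 in control condition, Chrnb1 was -0.587 with merging and -3.97 with centring; for day 5 minus day 0, merging gave -1.68 for Chrna1 and -0.0126 for Chrnb1, unshared bodies -3.82 for Chrne and matched lengths -10.3 for Rapsn. For day 1 restriction, centring gave 6.51 for Chrnb1, 4.05 for Musk and 1.98 for Rapsn, and matched lengths 0.852 for Musk and 3.67 for Rapsn; for day 5 restriction, centring gave 7.90 for Chrnb1 and 6.88 for Chrne. For the difference of effects, Chrnb1 was 23.8 with strong peaks, 7.34 with merging and 1.39 with centring, Chrnd -5.70 with matched lengths, and Chrne -14.0 with strong peaks and -18.0 with matched lengths. For day 5 restricted minus day 0, Chrnb1 was 12.1 with matched lengths and 15.8 with centring, and Chrne 2.61 with merging, 0.932 with extended bodies and 11.6 with centring. For day 5 minus day 1 within restriction, Chrnb1 was -1.04 and -2.58 and Rapsn -3.28 and -1.38 with matched lengths and centring, and the called Chrnd difference was -1.13 with matched lengths. The causes were not tested.

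Leaving out 1 library turned the sign of further values near 0, with these lowest and highest values: for day 1 control minus day 0, Chrna1 -0.519 to 0.888, Chrnb1 -0.549 to 7.31 and Musk -3.02 to 3.46; for day 5 minus day 1 in control condition, Chrna1 -0.838 to 0.569 and Chrnb1 -1.80 to 6.06; for day 5 minus day 0, Chrna1 -0.267 to 0.366 and Chrne -3.59 to 8.23; for the difference of effects, Chrnb1 -4.03 to 3.83; and for day 5 restricted minus day 0, Chrnb1 -6.97 to 0.448.

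With the replicate block, 1 member call was lost, Chrnd for day 5 minus day 1 within restriction (adjusted p = 0.062), and all-gene calls were, for example, 389 higher and 3787 lower at day 5 restriction. Each group has 2 libraries and unknown depth, and the Chrng peaks of day 1 had −log10 q of at most 2.89.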
